A study of Homo sapiens with 12 samples.

Results

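The baseline transcriptome of SHI-1 cells was described from the 3 control libraries of a series of 12. SHI-1 is an established acute myeloid leukemia (AML) line of monocytic type, and the labels give it as positive for MLL-AF6, the fusion of KMT2A (MLL) with AFDN (AF6, listed here as MLLT4). The members were chosen by their label: cells kept for 16 h in DMSO, the solvent of the drugs, with no drug added, in 3 independent experiments. They are therefore solvent controls of a single line and not cells that never met DMSO. Libraries were made with a TruSeq kit from total RNA, from which mRNA was selected with oligo-dT beads. All values are RNA levels, and protein was not measured.

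In MLL-rearranged leukemia the fusion protein keeps the N-terminal, DNA-binding part of KMT2A and recruits elongation and histone-modifying factors to its target genes. Later HOXA genes and the HOX cofactor MEIS1 are the best known of these targets, and they are normally switched off as blood progenitors mature. Myeloid precursors at the promyelocyte stage make the proteins of the primary granules, such as myeloperoxidase, and monocytes later gain surface proteins such as CD14 and the CSF1 receptor.

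The table held 14866 genes. Their normalized counts summed to 13963864, 14379702 and 14227063 in libraries 1, 2 and 3, which corresponds to an estimated 15801589, 19030838 and 14512969 reads if the most frequent low value is the worth of 1 read. A normalized count of 10, the minimum at which a gene is termed present below, is then about 10.2 to 13.2 reads. At 10 or more in every library there were 12096 genes (81.4%), the background for counts of present genes in the lists below. Another 2219 genes (14.9%) were detected below that minimum, and 551 genes (3.71%) were listed at 0 in all 3 libraries, which allows a mean of up to 0.863 (3 reads over the group, counting error only). To compare genes with each other, each value was divided by the length of the gene's canonical transcript and scaled to 1000000 per library, and this is the per-length level given below. It was available for 13769 genes, with a median of 11.8. It depends on which transcript length is used. With the union of all annotated exons of a gene the median was 15.4 and 7653 of 13284 levels above 0 moved by more than 1.5 times, with a largest rise of 2.11 times, and with the longest transcript 898 did. Levels named below that moved by more than 1.5 times are given with that alternative.

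The most abundant RNAs encoded the cytoskeleton, translation and glycolysis. ACTB, the cytoplasmic beta-actin, had the highest per-length level (13140 ± 711, SD, n = 3), followed by the elongation factor EEF1A1 (10527 ± 117), the glycolytic enzyme GAPDH (10113 ± 621) and the ribosomal protein gene RPS24 (10031 ± 510). The 3-library ranges of EEF1A1, GAPDH and RPS24 overlapped, so their order is not resolved, and RPS24 was at 1431 by the union of exons. The first place also depends on the length: by the union the ferritin light chain gene FTL was highest (15638, against 7476 by the canonical transcript), and the ranges of GAPDH (11340 by the union) and ACTB (11302) overlapped. Of the 20 genes with the highest per-length level, 14 encoded ribosomal proteins. The others were ACTB, EEF1A1, GAPDH, the actin-binding peptide gene TMSB4X, FTL and S100A8. S100A8, which encodes a calcium-binding protein of phagocytes, ranked 11 in the list. All 84 ribosomal protein genes with a row were present, where 81.4% of all genes were, and together took 11.98% to 13.6% of the summed normalized counts.

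**Figure D1:**
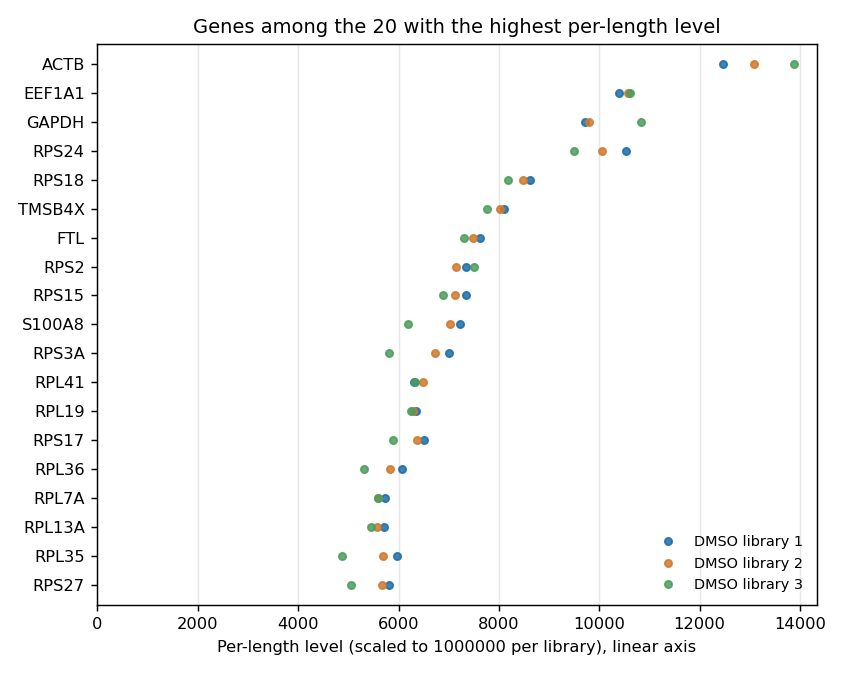
Per-length level (scaled to 1000000 per library, linear axis) of genes among the 20 with the highest mean, with 1 point for each of the 3 DMSO libraries. By canonical length ACTB lies highest at 13140 on average, and S100A8 is the myeloid gene among ribosomal protein genes.

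Without the length correction the highest normalized count belonged to EEF1A1, at 276402, 279360 and 269852. Leaving out ribosomal RNA, the 10 genes with the highest counts included MPO, which encodes the primary granule enzyme myeloperoxidase, at 58058 ± 4281. The 10 highest genes of all took 8.26% ± 0.82 of the sum, and 100 genes took 26.6% ± 0.57. Ribosomal RNA made up 1.88%, 3.58% and 2.87% of the sum in libraries 1, 2 and 3, and its part in the differences between libraries was not tested.

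Ribosomal protein mRNAs usually begin with a C followed by a run of pyrimidines, the 5′ terminal oligopyrimidine tract through which their translation is controlled. The 40 bases around the RefSeq start (20 before, 20 after, GRCh38.p14) of 4 of the most abundant genes are shown with S100A8 and TMSB4X. Capitals mark the first C within 5 bases of the start that is followed by at least 5 pyrimidines, and the rest of its tract.
RPS24 (chr10:78033843-78033882, + strand): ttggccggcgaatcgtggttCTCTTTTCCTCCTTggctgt
RPS18 (chr6:33272055-33272094, + strand): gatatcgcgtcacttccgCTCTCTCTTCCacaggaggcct
EEF1A1 (chr6:73521013-73521052, - strand): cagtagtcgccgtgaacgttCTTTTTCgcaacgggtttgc
RPS15 (chr19:1438376-1438415, + strand): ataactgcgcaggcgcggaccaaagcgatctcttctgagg
TMSB4X (chrX:12975090-12975129, + strand): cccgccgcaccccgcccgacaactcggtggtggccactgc
S100A8 (chr1:153391169-153391208, - strand): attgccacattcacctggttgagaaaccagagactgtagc
Such a tract began near the start in 49 of 68 ribosomal protein genes with a promoter entry (72.1%), against 11.1% of all 27303 promoters in the RefSeq table. RPS15 had none by this rule, and neither did TMSB4X or S100A8. Among genes with a per-length level of 100 or more the share was 18.2%, and it was between 10.5% and 11.1% in each of the lower bins. The bins hold all 10980 genes with a promoter entry and a level, ribosomal protein genes included. A match describes the letters at an annotated start, which may not be the start used in these cells.

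Markers of granulocyte and monocyte precursors were the most abundant lineage genes. Of 19 neutrophil and granule markers, 14 had a row and 12 were present, where 81.4% of all genes were. The median per-length level of the list was 185 against 11.8 over all genes (332 against 15.4 by the union of exons). Of 27 monocyte and macrophage markers, 25 had a row, 21 were present and the median was 15.7 (27.2 by the union). The summed level of the granule list was 7227 to 7815 per library (11682 to 12427 by the union), and that of the monocyte list was 12233 to 13048, most of which was S100A8 and S100A9.

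The 5 granule proteins taken as defining were all present. MPO was at 54162, 57371 and 62640 normalized counts in libraries 1 to 3, and its per-length level was 2429 ± 238 (3688 by the union of exons). CTSG, which encodes the serine protease cathepsin G, had a level of 1618 ± 35.4. The related proteases and the antimicrobial azurocidin lie side by side on chromosome 19, at chr19:825097-856247 (GRCh38, GENCODE 44). AZU1 had a level of 606 ± 19.9, PRTN3 (proteinase 3) 180 ± 5.02 (335 by the union of exons) and ELANE (neutrophil elastase) 413 ± 16.3 (763 by the union), and the 3-library ranges of these levels did not overlap. The order of AZU1 and ELANE was not resolved, since AZU1 was below ELANE by the union (646 against 763) and by the longest transcript (451 against 512). The ribonuclease genes RNASE2 and RNASE3 of the eosinophil and neutrophil lineages were at 1622 ± 29.9 (3392 by the union of exons) and 190 ± 5.37 (398 by the union), and RNASE2 shares much of its sequence with RNASE3 so that reads could be split between them. Genes of the later granules had far lower counts than these. LTF (lactoferrin) was at 4.42, 12.8 and 7.84 normalized counts and LCN2 (lipocalin 2) at or below 0.98 in every library. CAMP (cathelicidin) and the gelatinase gene MMP9 were present, at 34.9 ± 5.77 and at 133, 97.5 and 97.0 normalized counts.

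The 120 bases before the RefSeq start of 3 of these granule genes are shown because their promoters are poor in CG pairs. Capitals mark GGAA or TTCC, the core of sites bound by ETS factors such as PU.1, read on both strands, and TATAAA where it occurs.
CTSG (chr14:24576251-24576370, - strand): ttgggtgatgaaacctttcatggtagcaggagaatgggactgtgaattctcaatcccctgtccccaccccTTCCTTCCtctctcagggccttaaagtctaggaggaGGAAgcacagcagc
AZU1 (chr19:827717-827836, + strand): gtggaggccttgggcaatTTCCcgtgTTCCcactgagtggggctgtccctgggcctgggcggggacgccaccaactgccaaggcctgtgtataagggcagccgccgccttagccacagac
PRTN3 (chr19:840879-840998, + strand): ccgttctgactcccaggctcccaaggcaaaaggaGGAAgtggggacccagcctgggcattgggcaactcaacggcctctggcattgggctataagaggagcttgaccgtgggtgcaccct
The windows held 3, 2 and 1 of these ETS cores in CTSG, AZU1 and PRTN3, and 73.1% of all promoters hold at least 1 in a window of this length. The ratio of observed to expected CG pairs over 300 bases was 0.14 in CTSG, 0.28 in AZU1 and 0.27 in PRTN3, and the median over 10 genes of the granule list was 0.22. Over all genes with a row and a promoter entry the median was 0.83, but over all 27303 promoters in the RefSeq table it was 0.58, with a first quartile of 0.22. Across expression bins the median ratio was 0.69 for genes at 0, 0.71 above 0 and below 1, 0.82 from 1 to 10, 0.86 from 10 to 100 and 0.87 at 100 or more.

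Monocyte genes differed widely in level. All 7 defining markers were present. FCGR1A, the high-affinity IgG receptor CD64, was at 70.1 ± 1.58, the lysozyme gene LYZ at 69.0 ± 4.52 (125 by the union of exons) and CD68, a lysosomal protein of macrophages, at 46.7 ± 5.65 (76.9 by the union). FCGR1A and LYZ overlapped in range, but by the union LYZ was above FCGR1A (90.7) in every library. ITGAM, the integrin alpha chain CD11b, had a level of 15.7 ± 1.34 (27.2 by the union). CD14, the lipopolysaccharide co-receptor, was much lower at 5.91 ± 0.54, or 10.2 by the union of exons (normalized counts 64.8, 54.0 and 60.1), and CSF1R, the receptor for the macrophage growth factor, was at 2.77 ± 0.38 (4.29 by the union). VCAN, which encodes versican, was listed at 0 in all 3 libraries, and CLEC7A, IRF8 and KLF4 were below the minimum in at least 1 library. CD4, which human monocytes also carry, was high at 222 ± 17.8 (normalized counts 4763, 5009 and 5328). S100A9, the partner of S100A8, was at 5063 ± 82.5 (10588 by the union of exons).

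Lists of other blood lineages had median levels below the 11.8 of all genes, from 0.018 for B cell markers to 8.16 for mast cell, basophil and eosinophil markers, although by the union of exons the last of these was at 16.1 against 15.4 for all genes. The counts of present genes in the lists that follow stand beside 81.4% of all genes. In the stem and progenitor list 11 of 18 had a row and 7 were present. These were led by the factor SOX4 (432 ± 36.4 normalized counts) and the RNA-binding gene MSI2 (412 ± 36.1), while CD34 and KIT had no row among the 14866 genes. FLT3, a receptor kinase of early progenitors, was at 9.72, 12.1 and 14.7 normalized counts. Of 13 dendritic cell markers, 6 had a row and 4 were present. TCF4 was at 593 ± 65.7, CLEC9A at 94.5 ± 8.45 and BATF3 at 78.7 ± 4.99 normalized counts. Per length they were at 9.92 (5.72 by the union), 7.32 and 12.7 (6.30 by the longest transcript), so counts do not give their order. Of 11 mast cell, basophil and eosinophil markers, 4 had a row and 3 were present. Of these, the granule protein genes PRG2 and CLC were at 204 ± 17.7 and 74.0 ± 17.6 normalized counts. Of 17 erythroid markers, 15 had no row, including the globin genes HBA1 and HBB and the factors GATA1 and KLF1. Of 12 megakaryocyte markers, 9 had no row and ITGA2B was at 86.3 ± 7.28 normalized counts. B cell genes included CD79A at 24.6 ± 2.46 normalized counts and MS4A1 (CD20) at 0. T cell genes included CD3E at 71.9 ± 3.93 and CD2 at 21.2 ± 3.47 normalized counts, and both LCK and GATA3 at 0. NKG7, a granule membrane gene of natural killer and T cells, was the exception among lymphoid genes at 987 ± 43.3 normalized counts. GNLY was at 18.3 ± 2.39 and NCAM1 at 44.6 ± 6.35 normalized counts. Per-length levels were 171 ± 7.03 for NKG7 (301 by the union of exons), 3.17 for GNLY (1.69 by the union) and 1.03 for NCAM1. A missing row says only that the gene is not analysed here.

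**Figure D2:**
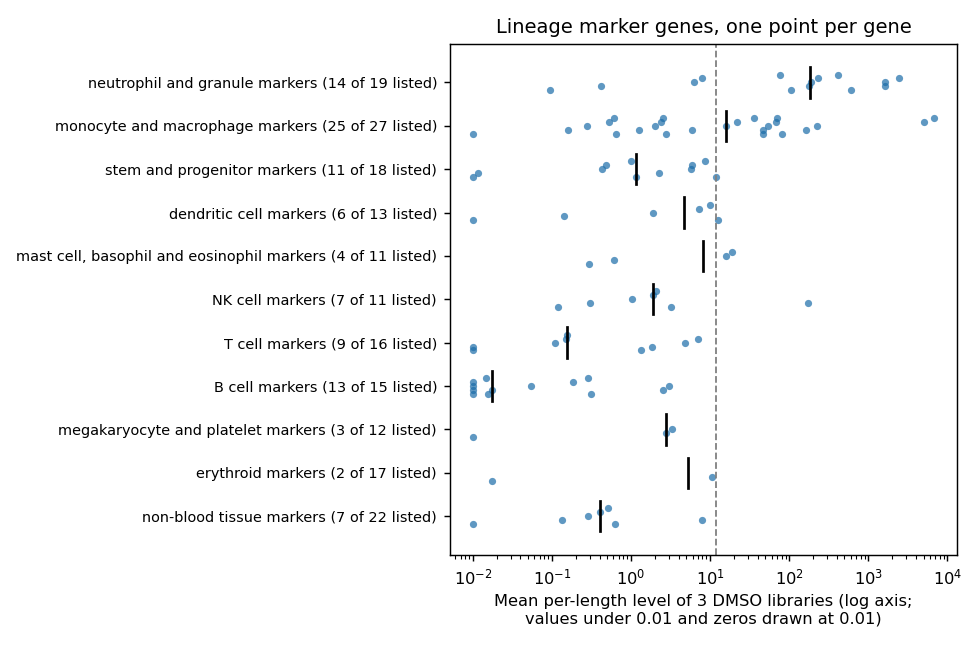
Mean per-length level (log axis) of lineage marker genes with a row, 1 point per gene, with the list median as a black bar and the median of all genes (11.8) as a dashed line; the numbers give genes with a row of genes listed. The granule list has the highest median (185) and the monocyte list comes next (15.7).

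Several transcription factors of the granulocyte and monocyte program were abundant, but not all. SPI1, which encodes PU.1, a regulator of myeloid fate, had the highest per-length level of the 48 hematopoietic factors with a row (446 ± 20.4). Of the 48, 43 were present, where 81.4% of all genes were. CEBPA, needed for granulocyte commitment, was at 142 ± 3.20 (297 by the union of exons) and CEBPE, which acts later in granulocyte maturation, at 232 ± 9.07. The repressor GFI1 was at 80.5 ± 1.04 (136 by the union) and RUNX1 at 30.1 ± 1.73. The progenitor factors MYB (142 ± 10.3), LYL1 (367 ± 10.8) and LMO2 (1716 ± 40.4 normalized counts) were also high, and MYC was at 252 ± 16.5. GATA2 was at 19.8 ± 0.97. IRF8 and KLF4, factors of monocyte differentiation, were below the minimum in at least 1 library (14.2, 7.60 and 14.8 normalized counts for IRF8 and 1.82, 4.66 and 3.88 for KLF4), as were TAL1, ERG and IRF4, and GATA1, GFI1B, MECOM and MYCN had no row.

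HOX genes were transcribed from the A and B clusters. Of the 39 human HOX genes, 25 had a row and 20 were present, a share near the 81.4% of all genes. Of the 20, 10 were from HOXA, 6 from HOXB, 3 from HOXC and 1 from HOXD. HOXA10 was highest, at 1017, 1019 and 962 normalized counts and a per-length level of 52.8 ± 0.53. HOXA9 followed at 41.2 ± 1.79, then HOXB7 at 30.5 ± 0.88 (57.2 by the union of exons), HOXA11 at 27.1 ± 1.34 (56.7 by the union) and HOXB4 at 21.3 ± 0.51 (44.6 by the union). None of these first 5 neighbours overlapped in range by canonical length, whereas HOXB4 and HOXB6 did. By the union HOXA10 (75.7) was still above the rest, but HOXA9 (58.7), HOXB7 and HOXA11 overlapped, and most genes below HOXC10 could not be ordered. Within HOXA the level was 1.97 at HOXA4 (4.03 by the union), 11.97 at HOXA5 (24.3), 6.88 at HOXA6 (11.1) and 15.6 at HOXA7 (27.3), and beyond the peak at HOXA10 it was 8.60 at HOXA13 (17.8). In HOXB, HOXB5 (3.26 normalized counts) and HOXB8 (11.96) were low between well expressed neighbours. HOXC10 (12.8 ± 0.79, or 22.3 by the union) and HOXC6 (5.96) were the main HOXC genes, and HOXD13 was the only HOXD gene with a row, at 10.6, 22.7 and 19.6 normalized counts. Exons of several HOX genes overlap those of another annotated gene on the same strand (481 bases for HOXA9, 368 for HOXA10), so reads could be split between them. Among HOX antisense and intergenic RNAs, HOTTIP, transcribed from beyond HOXA13, was at 136 ± 7.40 normalized counts, HOXA11-AS at 112 ± 14.4 and HOTAIRM1 at 37.5 ± 10.7. Their order differed per length, with HOXA11-AS at 10.5, HOTAIRM1 at 7.48 and HOTTIP at 5.48. HOXA11-AS and HOTAIRM1 overlapped in range, and by the union HOTTIP (7.53) averaged above HOTAIRM1 (7.02). HOTAIR had no row. Exons of HOXA11-AS share 867 bases with genes on the opposite strand, and HOTTIP and HOTAIRM1 share 935 and 646 bases with others on the same strand. Of the HOX genes, HOXA7 and HOXA11 share 1507 and 726 bases with genes on the opposite strand. Whether reads were kept apart by strand was not checked, so these values could include reads of the overlapping genes.

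**Figure D3:**
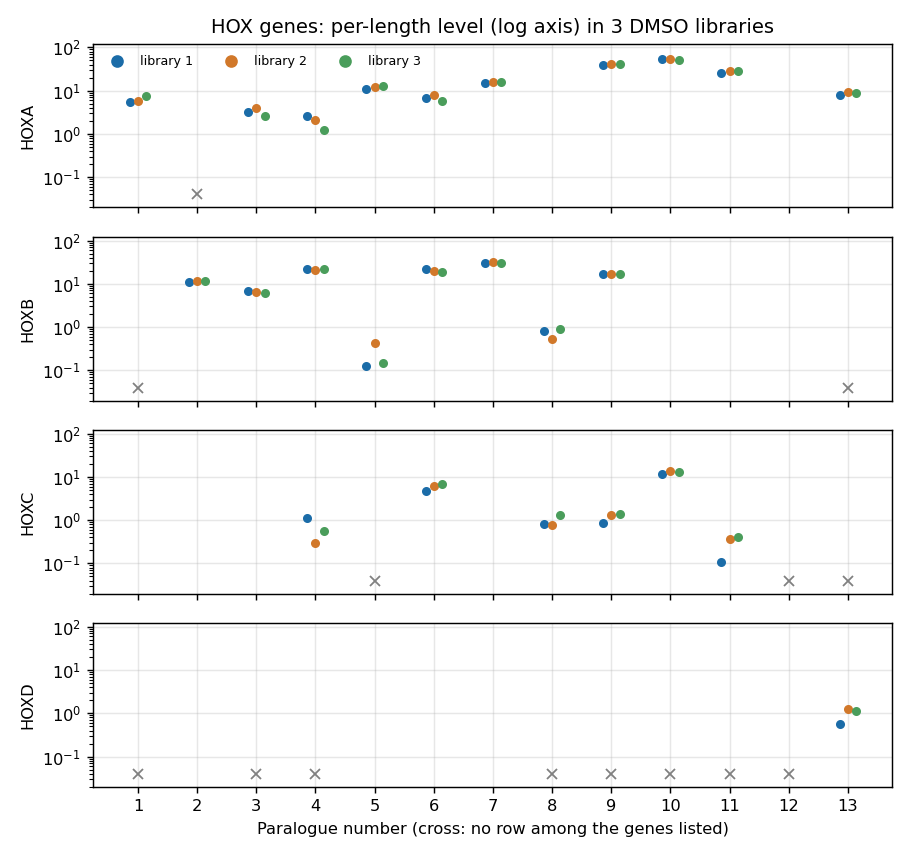
Per-length level (log axis) of HOX genes by cluster and paralogue number in the 3 DMSO libraries, with a cross where the gene had no row. HOXA genes peak at HOXA9 to HOXA11, and HOXB5 and HOXB8 lie below their neighbours.

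All 7 partner genes of the TALE homeobox class with a row were present, where 81.4% of all genes were. PBX3 was at 83.2 ± 5.04, PBX2 at 78.6 ± 6.10 (122 by the union) and MEIS1 at 34.6 ± 2.37. The ranges of PBX3 and PBX2 overlapped, and by the union PBX2 was above PBX3 (101). The ratio of HOXA9 to MEIS1 was 1.14 to 1.22 in the 3 libraries, and 1.86 to 1.99 by the union. KMT2A (10.2 ± 0.83) and MLLT4 (15.5 ± 0.49) were both present, but a value per gene cannot tell fusion transcripts apart from those of the normal alleles. All 31 genes of the list of MLL complexes and fusion cofactors were present, again beside 81.4% of all genes. Among them were MEN1, which encodes menin (53.0 ± 3.09), and DOT1L, the methyltransferase of histone H3 lysine 79 (45.1 ± 3.21).

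Of 43 genes recurrently mutated in AML, 42 had a row and 40 were present, where 81.4% of all genes were. Mutation was not assessed. NPM1, the nucleolar chaperone, was the most abundant at 3467 ± 32.9, or 1151 by the union of exons and 1781 by the longest transcript. IDH2 was at 121 (241 by the union), against 2.83 for DNMT3A and 4.37 for TET2. In the list of leukemia oncogenes, the fetal RNA-binding gene IGF2BP1 was at 24.9 ± 2.33 (47.6 by the union), LIN28B at 7.15 ± 0.88 (13.7) and WT1 at 23.2 ± 1.25. The telomerase gene TERT and the stem cell gene LGR5 were listed at 0, with CCND1 at 9.18 ± 2.70 normalized counts beside CCND3 at 2493 ± 115.

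Proliferation genes were all present, where 81.4% of all genes were. PCNA, the sliding clamp of DNA replication, was at 538 ± 8.34 (1023 by the union of exons), TYMS at 482 ± 11.8, TOP2A at 190 ± 6.62 (355 by the union) and MKI67 at 113 ± 15.4 (234 by the union). Among anti-apoptotic genes MCL1 (97.9 ± 3.29) and BCL2A1 (69.5 ± 7.13, or 114 by the union) were higher than BCL2L1 (31.4 ± 4.28) and BCL2 (9.69 ± 1.19), and the 3-library ranges of these genes did not overlap, except those of MCL1 and BCL2A1 by the union. The pro-apoptotic gene BAX was at 121 ± 2.53 (77.9 by the union).

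Surface antigen genes used to identify or target AML varied widely. Of 54 genes, 44 had a row and 32 were present, where 81.4% of all genes were. ANPEP, the aminopeptidase CD13 of myeloid cells, was the highest at 510 ± 35.2 (773 by the union of exons), with normalized counts of 13331, 13750 and 14557. CD99 was at 295 ± 10.3 (143 by the union), the TNF family ligand CD70 at 286 ± 21.1 and sialophorin (SPN, CD43) at 223 ± 27.5 (459 by the union). The ranges of CD99 and CD70 overlapped, and by the union the order was reversed, with SPN above CD70 (356) and CD70 above CD99. CD33, the target of gemtuzumab, was at 76.7 ± 7.27 (39.2 by the union of exons), CD44 at 86.2 ± 8.97, the phagocytosis checkpoint CD47 at 56.8 ± 1.78, IL3RA (CD123) at 39.7 ± 4.06 (74.7 by the union) and CLEC12A at 34.4 ± 3.67. CD38 was at 1.36 normalized counts in 1 library and 0 in the others. CD274 (PD-L1) averaged 1.62 ± 0.84 normalized counts. LILRB4 had no row.

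Among 36 cytokine receptor genes with a row, 28 were present, where 81.4% of all genes were. IL2RG, the common gamma chain, led at 200 ± 9.04, followed by TNFRSF1A at 128 ± 10.9, CSF3R at 105 ± 7.03 (62.2 by the union of exons) and IFNGR1 at 103 ± 6.25, the last pair with overlapping ranges by canonical length and with IFNGR1 higher by the other lengths (126 by the union). The chains of the GM-CSF receptor were at 22.6 ± 2.00 (CSF2RA) and 8.90 ± 1.15 (CSF2RB, or 18.1 by the union), and GHR was listed at 0. Of chemoattractant receptors LTB4R (42.4 ± 0.39) and CX3CR1 (41.5 ± 6.08) were highest and overlapped, but CX3CR1 was above LTB4R by the union (73.8 against 53.7) and by the longest transcript (55.6 against 39.2). CXCR4 was at 20.1 ± 0.65. CLEC5A, a receptor of myeloid cells that binds flaviviruses, was the highest of the pattern recognition list at 182 ± 16.7 (323 by the union of exons), and TMEM173 (STING) was at 124 ± 7.49. TLR4 and TLR2 had per-length levels of 1.27 (2.54 by the union) and 2.37, and TLR3 averaged 0.32 normalized counts. ITGB2, the common beta chain of leukocyte integrins, was at 239 ± 14.7. Of its alpha chain partners, ITGAL was at 3.83, ITGAM at 15.7 (27.2 by the union) and ITGAX at 22.1. The ratio of ITGB2 to ITGAL was 58.4 to 67.9, or 43.2 to 50.2 by the union.

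The class I genes B2M, HLA-B and HLA-C were high, while most class II genes were listed at 0. B2M, the light chain of class I, was at 2586 ± 45.1 (1634 by the union of exons), HLA-B at 753 ± 8.88 (457 by the longest transcript) and HLA-C at 440 ± 3.07; the HLA genes resemble each other and reads could be shared among them. HLA-DRA, HLA-DPA1, HLA-DPB1, HLA-DQA1, HLA-DQB1, HLA-DMB and CIITA, the master activator of class II transcription, were listed at 0 in every library, and CD74, the invariant chain, was at 4.40, 10.6 and 7.81 normalized counts. HLA-DMA, a chaperone chain of class II, was the exception at 16.8 ± 5.83 normalized counts, and HLA-DOA and HLA-DOB were below the minimum. The class II genes and their neighbours lie in a stretch from NOTCH4 to RXRB at chr6:32194843-33200665. Within it the peptide transporter genes TAP1 (727 ± 20.2 normalized counts) and TAP2 (779 ± 71.2) and the proteasome gene PSMB8 (1791 ± 45.3) were present. Per length TAP1 (36.4) was above TAP2 (18.6). The 150 bases before the start of HLA-B, B2M and HLA-DQB1 are shown with the letters CCAAT or ATTGG, the core of sites bound by the factor NF-Y, in capitals.
HLA-B (chr6:31357180-31357329, - strand): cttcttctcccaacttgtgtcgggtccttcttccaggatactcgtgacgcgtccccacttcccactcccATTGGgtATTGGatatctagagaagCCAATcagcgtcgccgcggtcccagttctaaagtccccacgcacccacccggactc
B2M (chr15:44711367-44711516, + strand): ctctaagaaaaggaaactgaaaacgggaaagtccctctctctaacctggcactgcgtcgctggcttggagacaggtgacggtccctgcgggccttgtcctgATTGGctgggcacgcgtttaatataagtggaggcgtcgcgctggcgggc
HLA-DQB1 (chr6:32666658-32666807, - strand): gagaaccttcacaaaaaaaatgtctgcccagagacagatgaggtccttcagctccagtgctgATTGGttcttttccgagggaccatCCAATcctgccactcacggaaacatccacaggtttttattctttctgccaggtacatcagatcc
These letters occur in 24.4% of all promoters in the same window, and here in the promoters of genes at a high level and of 1 listed at 0.

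**Figure D4:**
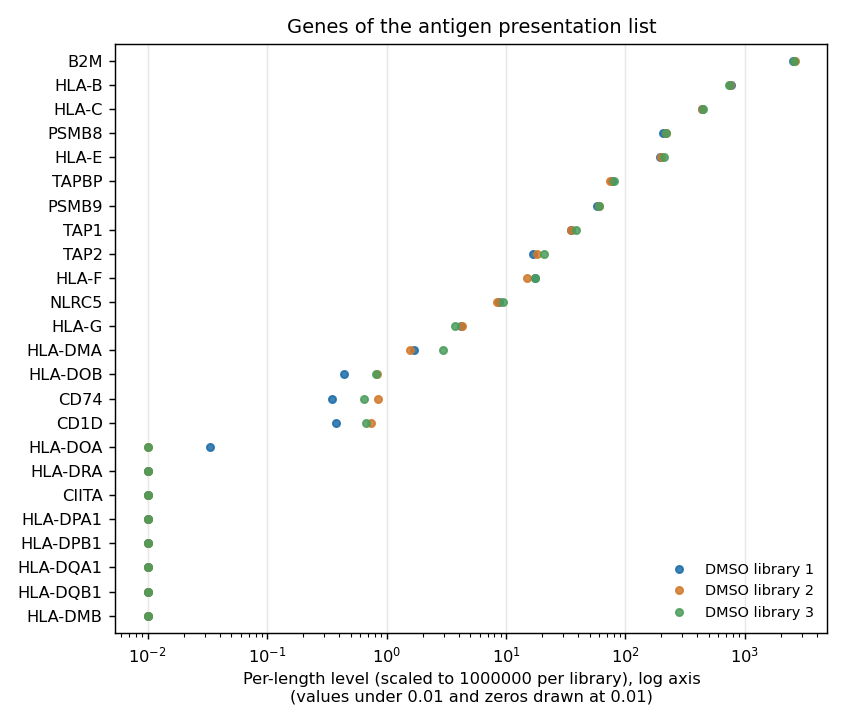
Per-length level (log axis) of genes of the antigen presentation list in the 3 DMSO libraries, with zeros and values under 0.01 drawn at 0.01. By canonical length B2M, HLA-B and HLA-C lie between 440 and 2586, and 7 genes (6 class II genes and CIITA) lie at 0.

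On chromosome 9 a second group of genes listed at 0 lay among genes that were present. CDKN2A and CDKN2B, which encode inhibitors of CDK4 and CDK6, were at 0 in all 3 libraries (chr9:21967752-21995301 and chr9:22002903-22009305). Their neighbour MTAP (22.8 ± 1.00), which sits at chr9:21802636-21937651, and KLHL9 (17.0, or 35.6 by the union) and FOCAD (20.8) were present. The antisense RNA CDKN2B-AS1 was at 28.6, 34.6 and 21.1 normalized counts, with a per-length level of 2.62 (0.39 by the union). Its exons share 837 bases with genes on its own strand and 593 with genes on the opposite strand, so these reads could belong to other genes. The promoters of CDKN2B and MTAP and of HOXA10, which is present, are shown for their CG pairs (capitals).
CDKN2B (chr9:22009306-22009455, - strand): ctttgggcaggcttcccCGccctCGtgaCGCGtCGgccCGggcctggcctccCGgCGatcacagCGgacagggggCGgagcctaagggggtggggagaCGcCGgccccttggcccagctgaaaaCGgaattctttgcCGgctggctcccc
MTAP (chr9:21802486-21802635, + strand): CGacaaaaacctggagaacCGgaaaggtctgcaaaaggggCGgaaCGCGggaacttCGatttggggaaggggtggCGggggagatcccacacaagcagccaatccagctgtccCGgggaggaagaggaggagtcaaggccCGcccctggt
HOXA10 (chr7:27179862-27180011, - strand): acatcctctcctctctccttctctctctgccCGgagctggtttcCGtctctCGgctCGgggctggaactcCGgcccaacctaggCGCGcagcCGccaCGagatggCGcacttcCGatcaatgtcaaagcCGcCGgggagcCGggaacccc
CDKN2B, listed at 0, had 25 CG pairs in 300 bases and an observed to expected ratio of 0.74, and MTAP, which was present, had 15 and 0.72. DNA methylation and gene copies were not measured here. CDKN2C and CDKN2D, other inhibitors of the same family, were at 196 ± 8.96 (94.4 by the longest transcript) and 30.1 (59.7 by the union of exons).

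Replicates were close for most genes. The median SD of log2(value + 1) over the 12096 present genes was 0.10, or a median coefficient of variation of 6.91%, and 69.1% of present genes varied by less than 10%. Spread fell with the level: the median coefficient was 18.9% for genes averaging 10 to 30, 13.8% from 30 to 100 and 4.35% at 3000 or more. At 10 to 30 the counting error alone is near 20.7%, and at 3000 or more it is 1.31%. Between pairs of libraries 46 to 79 genes differed by more than 2-fold. The largest SDs at a mean of 50 or more belonged to RGPD6, RGPD5, CTNND1, RN7SL2, XAGE1E and other genes with near-identical copies or overlapping transcripts. RGPD6 was at 0, 0 and 257 normalized counts beside RGPD5 at 270, 384 and 56.1, and reads shared between such genes were not separated. RNA18S5 was at 36426, 156812 and 125625 normalized counts, although mRNA had been selected with oligo-dT beads.

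**Figure D5:**
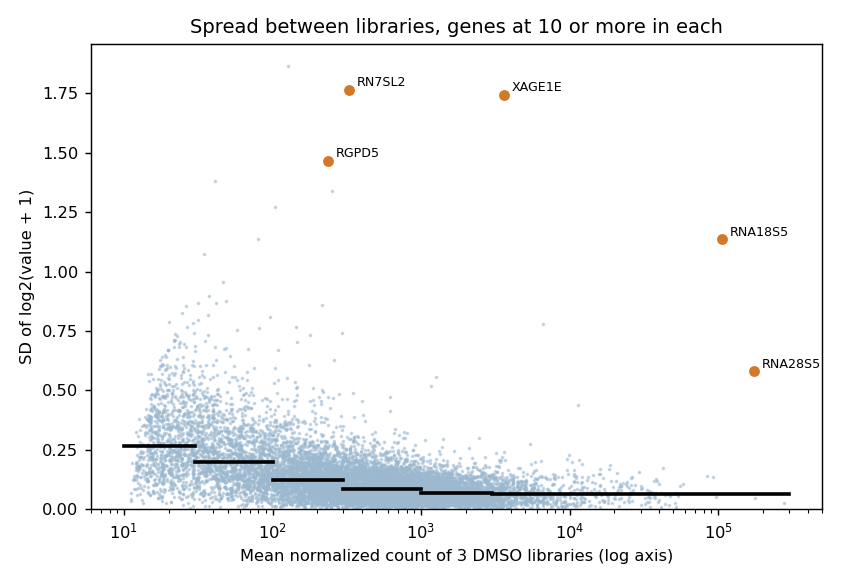
SD of log2(value + 1) between the 3 DMSO libraries against the mean normalized count (log axis) for present genes, with the median of each level class as a black line. The median falls from 0.26 to 0.06, and 5 genes named in orange stand far above it.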

How the data were processed

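RNA of SHI-1 cells was sequenced after 16 h in DMSO, with 3 libraries analysed here of 12 in the series. In each deposited table the signal of a gene is its normalized count, as made by the authors over the 24 libraries that the header counts; the filter on genes is not given in the sources used here. The supplementary methods name trimmomatic, STAR and Salmon, whereas the submitters' processing notes name bcl2fastq 2.19, Trimmomatic, Bowtie2, Picard, featureCounts and DESeq2 with hg38, and the difference was not resolved. The labels and the supplement name different culture media.

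Gene lengths and coordinates came from GENCODE 44 (GRCh38), which matched 93.0% of names, and promoters from RefSeq (GRCh38.p14), which matched 74.7%. Values were divided by canonical transcript length in Python 3.11.15. A gene was present at 10 or more in each library, and log2 used a pseudocount of 1. No test was run. Gene lists and named genes were chosen with earlier results of these data known. Computations were tested on simulated data. Only 51.7% to 53.1% of values under 20 were whole multiples (within 0.01 of a read) of the modal low value, so reads were not recovered and depth is an estimate. Named genes were the 20 highest levels, the 10 highest counts without rRNA, HOX genes, defining and top members of each list, list members at 0 and the 10 largest SDs. Some genes under that rule are not reported here, and genes outside it were chosen after their values were seen. Alternatives were other minima, lengths, scalings and pseudocounts, and each library left out.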

Additional observations from a re-analysis of the deposited data

How the results depend on the processing

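The number of genes, HOX genes and monocyte markers at 10 or more, and the number of genes at 0, kept within 1.5 times under each alternative run. With a minimum of 1 or 50 in place of 10, the present genes numbered 13530 or 10345. Leaving out 1 library gave 12205 to 12242 genes, 20 to 21 HOX genes and 21 to 22 monocyte markers at 10 or more, and 638 to 655 genes at 0. The median SD was 0.07 to 0.10 without 1 library. The share of the 10 most abundant genes was 8.26%, and it was 6.93% without rRNA, 9.09% per kilobase and 7.90% to 8.70% without 1 library. The median per-length level of 11.8 was 15.4 with the union of exons and 14.4 with the longest transcript, and 11.6 to 12.03 without 1 library. Of 48 gene levels, 46 and 45 moved by more than 1 SD under these lengths. NPM1 went from 3467 to 1151 and 1781, and MPO from 2429 to 3688 and 3407. Of the 20 highest genes, 11 and 12 remained among the 20 highest. No paired analysis was possible because a single group was described. Depth limits statements on genes averaging under about 30.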

Other observations

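Some genes stood out that no list held, and they were chosen after their values were seen. BEX1, which encodes a signalling adaptor, had a per-length level of 1580 ± 16.0 (3304 by the union of exons), CHI3L1, a secreted chitinase-like glycoprotein, 790 ± 59.5, and PYGL, liver glycogen phosphorylase, 848 ± 58.1. RHOXF2, a reproductive homeobox gene on chromosome X, was at 437 ± 5.94 (914 by the union), and XAGE1B, an X antigen gene usually expressed in testis, was at 7029, 9590 and 3346 normalized counts beside its near-identical copy XAGE1E at 3708, 639 and 6496.

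Of 7 metallothionein genes with a row, which encode metal-binding proteins, MT2A was at 562 ± 17.3 (350.3 by the longest transcript) and MT1X at 39.7 ± 2.73 (19.4 by the union), while MT1B, MT1E, MT1G and MT1H were listed at 0. The DNA repair gene MGMT and the mitophagy gene BNIP3 were also listed at 0. Genes at 0 made up 8.05% of genes on chromosome X and 1.57% to 5.44% of those on each autosome, and 6.93% of 462 ZNF genes, against 3.71% of all genes.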
